A study of Mus musculus with 35 samples.

Results

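The 9 genes described here encode the core of the Sonic hedgehog pathway: the ligand *Shh*, the receptor *Ptch1*, the signal transducer *Smo*, the transcription factors *Gli1*, *Gli2* and *Gli3*, and the co-receptors *Boc*, *Cdon* and *Gas1*. They were chosen by name, with earlier results of these data known, from the 53465 genes of the bulk table, and all 9 were present there and among the 21548 genes of the wild-type single-cell tables. The samples came from wild-type mouse brain at embryonic day E14.5, dissociated and sorted by FACS for neural, mural, endothelial and microglial cells. Bulk RNA-seq covered 3 libraries for each of the 4 populations. Library names join a prefix (N for neural, Mu for mural, Ec for endothelial, Mi for microglia) to 1 of 3 numbers shared by all populations, as in N-340. The number was taken here to mark a brain, which the labels do not state outright, and values are given in ascending order of that number throughout. Single cells from 3 wild-type plates were sequenced by mCEL-Seq2, in which molecular identifiers allow transcripts rather than reads to be counted. Neural cells were defined by the absence of the surface markers used for the others, mural cells by high PDGFRβ, endothelial cells by PECAM1 and CD102, and microglia by medium CD45 with CD11b in bulk, or with CD41 in the gate named for the wells. The neural population is therefore a mixture of whatever lacked those markers, from the whole brain.

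Sonic hedgehog is a secreted signal that, in the embryonic brain, is made by small groups of cells near the ventral midline and by some neurons, and that patterns ventral territories and sustains progenitors. PTCH1 holds SMO inactive until ligand binds, after which SMO gathers in the primary cilium and the GLI factors change from repressors to activators. GLI3 is best known as a repressor and GLI2 as an activator, while *Gli1* and *Ptch1* are themselves induced by the signal. BOC, CDON and GAS1 bind the ligand at the cell surface together with PTCH1.

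Total reads assigned to genes, recovered from the deposited normalized counts, ranged from 17638358 to 98414914 per bulk library. The neural libraries were prepared with a different kit (TruSeq) from the other 3 populations (SMART-Seq v4 and Nextera XT), so kit and neural identity cannot be told apart in the bulk data. In contrast, all single cells went through 1 protocol. The sort was checked by marker genes: the summed normalized count of 8 mural markers was 706654 to 763295 in mural libraries, that of 8 endothelial markers 180176 to 201635 in endothelial libraries, and that of 8 microglial markers 264850 to 279078 in microglial libraries, while in neural libraries the highest of these 3 sums was 453. The 8 neural markers summed to 158815 to 171791 in neural, 35286 to 65556 in mural, 16797 to 17916 in endothelial and 6763 to 10024 in microglial libraries. Most of the mural sum came from *Fabp7*, at 354% of its neural mean, and *Sox11*, at 46.7%, and most of the endothelial sum from *Sox11*, at 33.7%. The other 6 stood at 1.43% to 7.53% of their neural means in mural and 1.39% to 10.4% in endothelial libraries, apart from *Fabp7* at 15.4% in the latter. In bulk samples, fewer cells of a type and less RNA per cell cannot be told apart. Fibroblast markers were also highest in mural libraries, with sums of 8873 to 11803 for 8 genes, of which 2 were at 0 there. Border macrophage markers (5 genes) summed to 14920 to 18717 in microglial libraries, and erythroid markers (7 genes) to 13054 to 34138 in endothelial and 9042 to 11841 in neural libraries. The part of these cells in the values was not tested.

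All 9 genes were highest in neural cells, and in each the 3 neural libraries lay above the 9 others (25.2% of all genes tested did so). With limma, all 9 were called higher in neural cells than in the mean of the other populations, against a background of 32.9% of 19765 genes, and 7 of 9 were called with a difference over 10-fold, against 13.8%. *Shh* and *Gli2* met the bulk minimum, a mean of at least 10 over the 12 libraries, only through their neural values. Their means in the other populations were 1.93 and 9.5. The median log2 difference of the 9 genes was 4.92, and that of all genes tested 0.09. For each gene the exact two-sided permutation test of 3 against 9 libraries gave its smallest possible value (p = 0.00909). The recovered reads tested with edgeR also gave 9 calls, and DESeq2 gave 8, with no p-value for *Boc*. The 3 neural libraries agreed closely, with a median coefficient of variation of 4.42% over the members, against 68.9% in mural, 59.9% in microglial and 94.8% in endothelial libraries. Over all genes the medians were 6.64%, 37.5%, 34% and 47% in the same order.

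**Figure D1:**
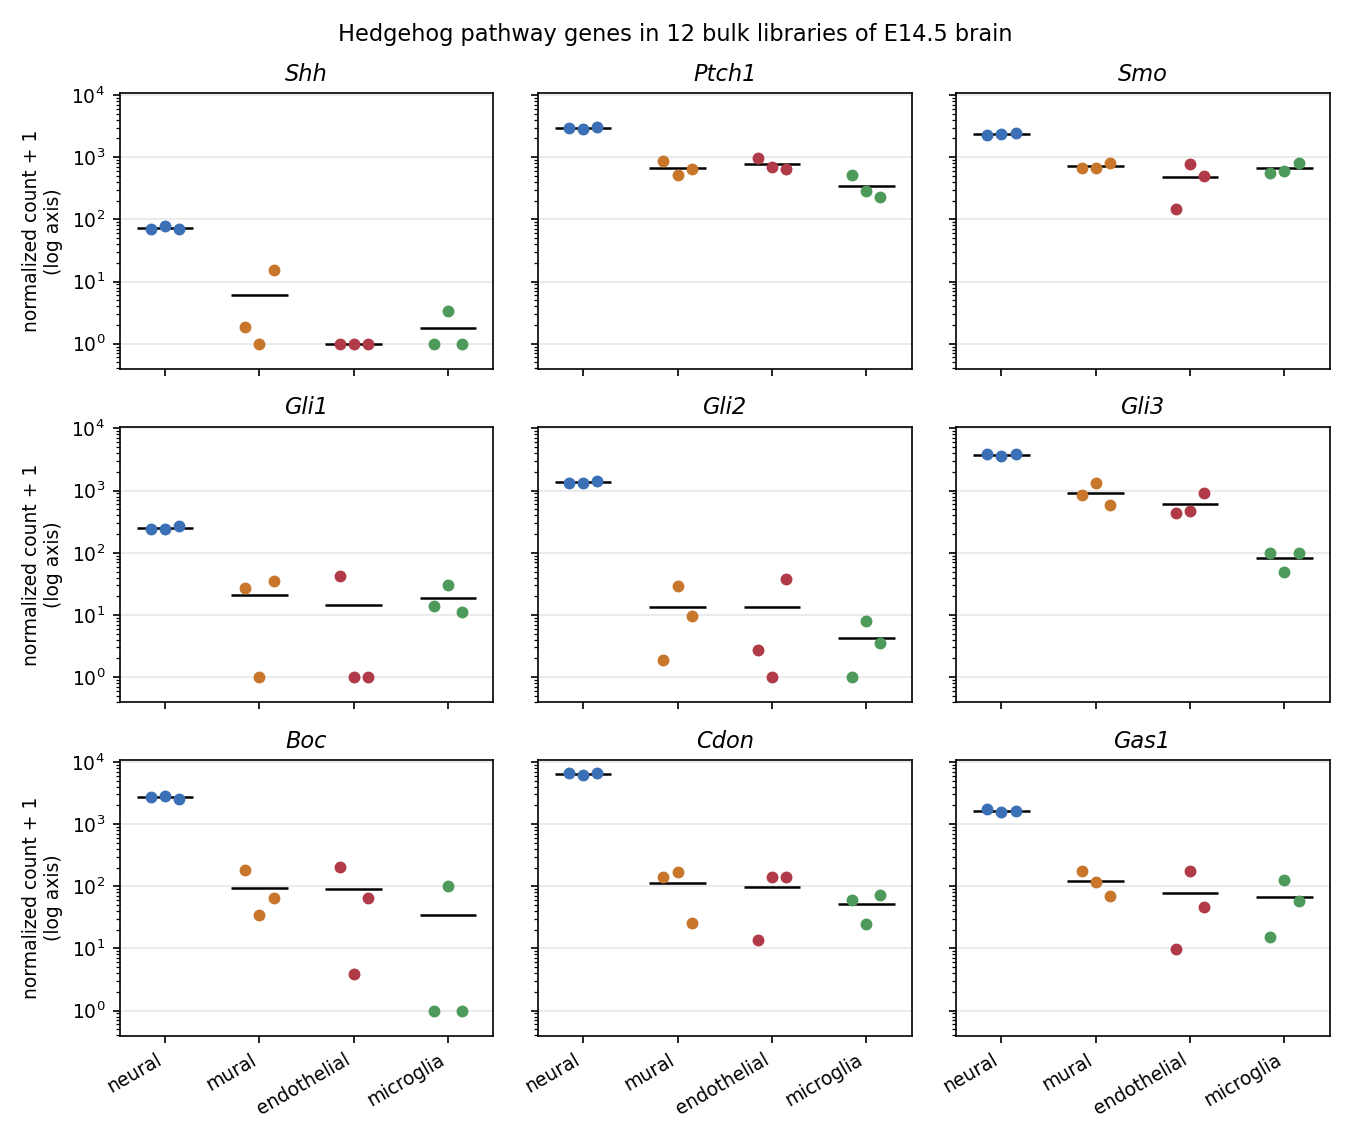
Normalized count plus 1 (log axis) of the 9 genes in the 12 bulk libraries, 1 point for each library and a black line at the mean of each population. In every panel the 3 neural points lie above the other 9, while *Ptch1*, *Smo* and *Gli3* range from 145 to 1335 in mural and endothelial libraries.

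The ligand was the least abundant member. *Shh* (ENSMUSG00000002633, GRCm38 chromosome 5, 28456815 to 28467256, minus strand) had normalized counts of 68.1, 77.0 and 67.9 in the neural libraries. The mural libraries had 0.874, 0 and 14.1, the microglial libraries 0, 2.37 and 0, and the 3 endothelial libraries 0. *Shh* was thus a neural transcript at a low level, and outside neural cells most of its reads came from 1 mural library, with 15. Against a floor of 3 reads in each endothelial library, a normalized count of 4.70, the neural mean of 71.0 ± 5.18 (SD, n = 3) was at least 15.1-fold higher. The fitted log2 difference from the other populations was 5.44 (SE 0.735, limma adjusted p = 8.1e-05). Among single cells a *Shh* transcript was found in 1 of 123 neural-gate cells and in none of 210 mural, 225 endothelial and 128 microglial cells, counts of 0 that allow shares of cells with a detected transcript of up to 1.43%, 1.33% and 2.34%. Such a limit concerns detection at these depths, not how many cells express the gene. The cells were therefore too few to place the ligand within the neural population.

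Both receptor components were present in every population. *Ptch1* (ENSMUSG00000021466, chromosome 13, 63508328 to 63573598, minus strand) had 2946, 2870 and 3085 in neural, 862, 514 and 641 in mural, 952, 690 and 652 in endothelial and 512, 281 and 228 in microglial libraries. Neural libraries were highest, mural and endothelial libraries overlapped, and the 3 microglial libraries were the lowest of the 12, a position below all other libraries held by 5.97% of genes. The neural difference was 2.45 on the log2 scale (SE 0.252, limma adjusted p = 1e-05). In the limma fit microglia were also lower than endothelial cells, by a log2 difference of 1.23 (SE 0.309, adjusted p = 0.01), and than mural cells, by 1.03 (SE 0.309, adjusted p = 0.021). These last contrasts compare libraries of 1 kit, but their SE comes from a spread shared with the neural libraries, which agreed more closely. The mural one was lost without Mu-340, Mi-343 or Mi-346 (adjusted p from 0.071 to 0.081).

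*Smo* (ENSMUSG00000001761, chromosome 6, 29735503 to 29761365, plus strand) had 2249, 2353 and 2418 in neural, 679, 665 and 797 in mural, 145, 775 and 496 in endothelial and 553, 608 and 811 in microglial libraries. Outside neural cells the populations overlapped, with 1 low endothelial library. None of the mural, endothelial and microglial pairs was called by limma (adjusted p from 0.19 to 0.86), although without Ec-343 endothelial cells were called lower than both others (0.035 and 0.043), and the mural minus microglial difference was 0.13 with a 95% interval from -0.92 to 1.19. The neural difference was 2.06 (SE 0.39, limma adjusted p = 0.00086), the smallest of the 9. Per kilobase of exon, *Smo* exceeded *Ptch1* in 11 of 12 libraries, with neural means of 416 and 209 normalized counts per kilobase.

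The 3 *Gli* genes differed in how far they reached beyond neural cells. *Gli3* (ENSMUSG00000021318, chromosome 13, 15463235 to 15730026, plus strand) had 3854, 3599 and 3879 in neural, 835, 1335 and 591 in mural, 434, 476 and 914 in endothelial and 99.8, 48.6 and 96.9 in microglial libraries. Mural and endothelial values overlapped, and all microglial values lay below every other library. Its mural mean was 24.4% and its endothelial mean 16.1% of the neural mean, whereas microglia stood at 2.17%. In the limma fit mural cells exceeded microglia by 3.47 on the log2 scale (SE 0.393, adjusted p = 4.2e-05) and endothelial cells exceeded them by 2.87 (SE 0.393, adjusted p = 0.00019). Mural and endothelial cells were not separated (log2 difference 0.60, 95% interval -0.27 to 1.47, adjusted p = 0.29).

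*Gli2* (ENSMUSG00000048402, chromosome 1, 118834132 to 119053619, minus strand) had 1346, 1339 and 1448 in neural libraries. It had 0.874, 28.5 and 8.45 in mural, 1.77, 0 and 36.2 in endothelial and 0, 7.12 and 2.52 in microglial libraries. *Gli2* was nearly absent outside neural cells, with population means of 0.233% to 0.919% of the neural mean, and its log2 difference of 8.14 (SE 1.13, limma adjusted p = 9.7e-05) was the largest of the 9. *Gli1* (ENSMUSG00000025407, chromosome 10, 127329882 to 127341974, minus strand), a gene commonly read as a sign of pathway activity, was much less abundant. Its values were 244, 241 and 264 in neural, 25.8, 0 and 33.8 in mural, 40.8, 0 and 0 in endothelial and 13.1, 29.6 and 10.1 in microglial libraries. The neural libraries stood apart, and the others overlapped (log2 difference 4.92, SE 1.3, limma adjusted p = 0.0065). The neural minus microglial contrast alone missed the threshold for *Gli1* (log2 difference 3.90, limma adjusted p = 0.054), and was called with DESeq2 (0.039), with a pseudocount of 10 (0.0017) and without Mu-343 (0.024) or Ec-340 (0.016). Neither library belongs to this pair. The limma fit takes 1 spread for each gene from all libraries, so its pairwise p-values do not measure the spread of the pair alone. The neural minus mural call of *Gli1* (4.68, adjusted p = 0.028) was lost with edgeR (0.099) and DESeq2 (0.052), without any 1 neural library (0.065 to 0.069, at log2 differences of 4.64 to 4.71) and without Mu-343 (0.1). *Gli1* lies across from *Arhgap9* on the opposite strand, which ranged from 2907 to 4110 in microglial libraries and from 0.528 to 2.67 in neural ones. Whether reads were counted by strand is not given in the sources used here, so *Gli1* reads in microglia cannot be told apart from those of its neighbour.

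Per kilobase, *Gli3* was the highest of the 3 factors in 11 of 12 libraries, and *Gli1* in library Mi-343. In neural cells the mean levels were 394 for *Gli3*, 201 for *Gli2* and 50 for *Gli1* in normalized counts per kilobase, in the same order in all 3 libraries. In mural and endothelial libraries *Gli3* stood at 96.0 and 63.4 per kilobase, while *Gli1* was at 3.98 and 2.72 and *Gli2* at 1.84 in both.

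The co-receptors were all far higher in neural than in other libraries. *Cdon* (ENSMUSG00000038119, chromosome 9, 35421128 to 35507652, plus strand) had 6621, 6214 and 6653 in neural libraries, the highest values of any member. Elsewhere it had 142, 170 and 24.4 in mural, 12.4, 139 and 139 in endothelial and 59.4, 23.7 and 71.8 in microglial libraries. These 3 populations overlapped, at 0.795% to 1.73% of the neural mean, and the neural log2 difference was 6.67 (SE 0.782, limma adjusted p = 2.8e-05).

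*Boc* (ENSMUSG00000022687, chromosome 16, 44485049 to 44558897, minus strand) had 2755, 2829 and 2559 in neural, 179, 33.1 and 64.8 in mural, 202, 2.84 and 63.3 in endothelial and 0, 99.6 and 0 in microglial libraries. Its values outside neural cells were uneven, with 2 microglial libraries at 0 and the other at 84 reads. The neural log2 difference was 6.86 (SE 1.47, limma adjusted p = 0.0019). The neural minus mural call for *Boc* (log2 difference 5.20, adjusted p = 0.03) moved to an adjusted p of 0.05 with a block for the brain, and was lost without any 1 of the 3 neural libraries (adjusted p from 0.071 to 0.073) and without Mu-343 (0.09) or Mu-346 (0.069). Without a neural library the log2 difference stayed at 5.17 to 5.24. The limma spread is shared by all populations, so these p-values also rest on the uneven endothelial and microglial libraries.

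*Gas1* (ENSMUSG00000052957, chromosome 13, 60174405 to 60177365, minus strand) had 1767, 1556 and 1623 in neural, 178, 116 and 68.6 in mural, 8.86, 173 and 45.2 in endothelial and 14.3, 125 and 57.9 in microglial libraries. The neural libraries were again apart and the rest overlapped (log2 difference 4.74, SE 0.809, limma adjusted p = 0.00042). Per kilobase the neural order was *Cdon* (842), *Boc* (610) and *Gas1* (557) in all 3 libraries, and in mural libraries *Gas1* was the highest of the co-receptors in 3 of 3.

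Compared pair by pair in the limma fit, 9 of 9 members were higher in neural than in mural cells (28.7% of all genes were), 9 of 9 than in endothelial cells (30.6%) and 8 of 9 than in microglia (30.4%). Against mural cells edgeR called 7 of 9 and DESeq2 6 of 9 (with no p-value for *Boc*), and *Shh* lost its call with both (adjusted p = 0.074 and 0.12). Against endothelial cells edgeR called 8 of 9, without *Gli1* (adjusted p = 0.065), and DESeq2 8 of 9, without *Boc*. Within the shared kit, with all libraries, *Ptch1* and *Gli3* were the members for which limma separated populations: both were higher in mural cells (17.9% of genes) and in endothelial cells (15.3%) than in microglia. Without Mi-343, the 1 microglial library with *Boc* reads, *Boc* was also called higher than microglia in mural (log2 difference 6.21, adjusted p = 0.0075) and endothelial cells (5.21, 0.021), and without Ec-340, the 1 endothelial library with *Gli1* reads, *Gli1* was called lower in endothelial cells than in microglia (-4.07, 0.042). Between mural and endothelial cells limma called 0 of 9 genes in either direction, against 13.5% and 14.3% of all genes. There, 0 members had an unadjusted p under 0.05 with limma, edgeR gave 0 calls and 1 such p, and DESeq2 gave 0 of both. Thus below neural cells limma placed microglia lowest for *Ptch1* and *Gli3*, and gave no order of mural and endothelial cells for any member.

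Against the mean of the other populations, 6 members were called lower in microglia (22.3% of genes) and 4 lower in endothelial cells (22.4%). In microglia these were *Shh*, *Ptch1*, *Gli2*, *Gli3*, *Boc* and *Cdon*, and in endothelial cells *Shh*, *Smo*, *Cdon* and *Gas1*. In microglia 3 calls were over 10-fold (7.45% of genes), those of *Gli2*, *Gli3* and *Boc*. Since the mean of the others includes the neural libraries, these calls partly restate the neural difference. They were also unstable. Of the microglial calls edgeR gave 4 of 9, without *Shh* (adjusted p = 1) and *Boc* (0.12). In microglia DESeq2 called 5 members lower, without *Shh* (0.32) and *Boc* (no p-value) but with *Gas1* (-1.91, adjusted p = 0.02). Of the endothelial ones edgeR gave 1 and DESeq2 2, while a pseudocount of 10 added *Gli2* (0.0078) and *Gli1* (0.033) there and *Gas1* (0.031) in microglia. With a block for the brain, *Shh* in microglia and *Cdon* in endothelial cells were no longer called (adjusted p = 0.065 for both) and *Gas1* in microglia was (adjusted p = 0.049). Without library Mi-340 or Mi-346, 3 members were called lower in microglia, with *Gli2*, *Shh* and *Boc* lost, and without any 1 of the neural libraries or without Mi-346 2 were called lower in endothelial cells. In microglia *Cdon* was lost (adjusted p = 0.077) and *Gas1* gained (0.039) without Mi-343, and *Gas1* (0.011) and *Smo* (0.014) were gained without Ec-340. *Shh* was also lost there without any 1 neural or endothelial library (0.057 to 0.072). Library Ec-340 was low for *Smo*, *Cdon* and *Gas1*. Without it *Smo* kept its endothelial call with a smaller log2 difference (-1.42 to -0.73, adjusted p = 0.02), while *Cdon* (-2.22 to -1.09) and *Gas1* (-2.28 to -1.22) did not (adjusted p = 0.22 for both), and *Gli1* gained one (-5.11, 0.0067). In mural cells limma called 0 of 9 in either direction, against 19.3% higher and 22.7% lower, with no unadjusted p under 0.05. edgeR also gave 0 calls there, with 1 unadjusted p under 0.05 upwards, and DESeq2 gave 1 lower.

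Wild-type single cells with over 1500 transcripts numbered 123 in the neural, 210 in the mural, 225 in the endothelial and 128 in the microglial gate, with median depths of 7717, 6885, 6408 and 10761 transcripts. Plate 3 was thin, with 14, 10, 13 and 6 cells. At least 1 member was detected in 63.4% of neural-gate cells, 53.3% of mural, 33.3% of endothelial and 44.5% of microglial cells, and 3 or more members together in 30, 12, 2 and 0 cells. With each cell thinned to 1500 transcripts, any member was detected in 35%, 18.6%, 8% and 3.91%. All members together made up 368 CPM (counts scaled to a common total of all transcripts) in neural-gate cells (95% Poisson interval 331 to 408), 157 in mural (138 to 178), 85.3 in endothelial (71.8 to 101) and 59.9 in microglial cells (47.6 to 74.3). These intervals, like all those given for cells, cover counting error only.

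**Figure D2:**
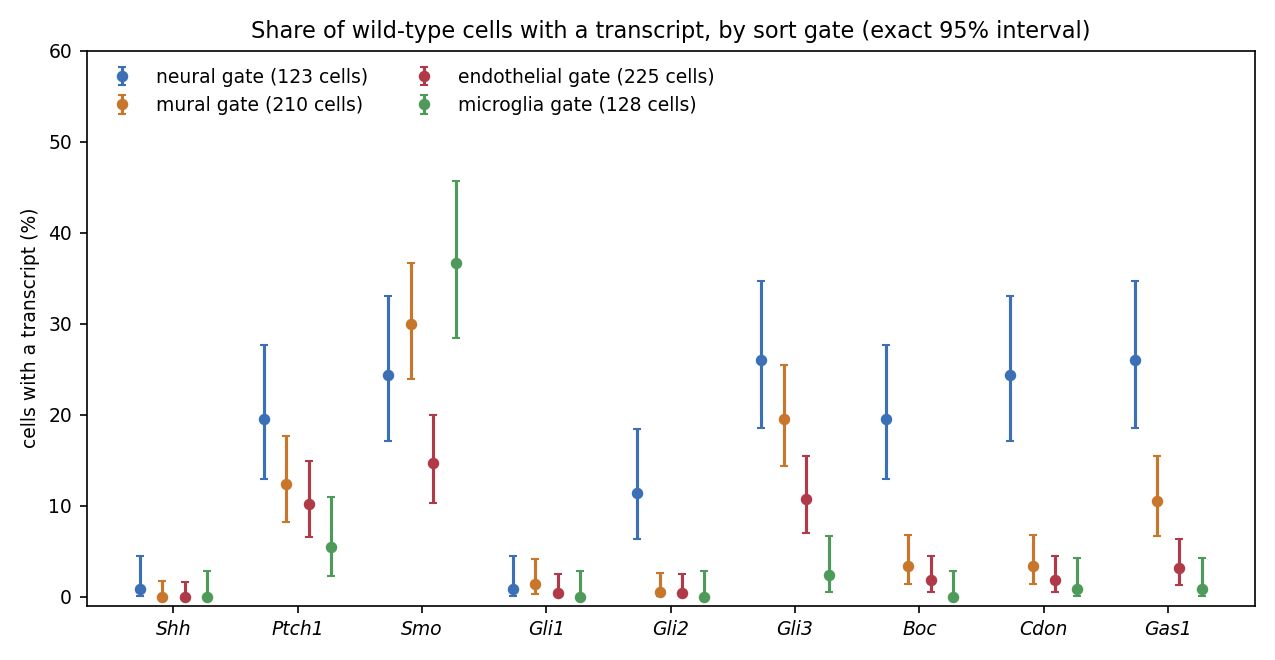
Share of wild-type cells of each sort gate with at least 1 transcript of each gene (percent), with exact (Clopper-Pearson) 95% intervals for counting error. *Boc*, *Cdon*, *Gas1* and *Gli2* are largely neural, *Gli3* and *Ptch1* extend to mural and endothelial cells, and *Smo* is found in all 4 gates.

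In cells, *Cdon* was detected in 30 of 123 neural-gate cells (24.4%, exact 95% interval 17.1 to 33.0), in 7 mural, 4 endothelial and 1 microglial cell. *Gas1* was detected in 32 neural-gate cells (26.0%, 18.5 to 34.7), in 22 mural cells (10.5%, 6.68 to 15.4), 7 endothelial cells and 1 microglial cell. *Boc* was in 24 neural-gate cells (19.5%, 12.9 to 27.6), 7 mural, 4 endothelial and 0 microglial cells. The co-receptors were therefore mostly neural in cells too, with *Gas1* reaching furthest into the mural gate. *Gli2* was detected in 14 neural-gate cells (11.4%, 6.36 to 18.4) and in 1 mural, 1 endothelial and 0 microglial cells. The 0 of 128 microglial cells for *Boc* and *Gli2*, at a greater depth per cell, allow a share with a detected transcript of up to 2.84% (exact 95% interval).

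*Gli3* was found in 32 neural-gate cells (26.0%), 41 mural cells (19.5%, 14.4 to 25.5), 24 endothelial cells (10.7%, 6.95 to 15.5) and 3 microglial cells (2.34%, 0.486 to 6.70). *Ptch1* was found in 24 neural-gate (19.5%), 26 mural (12.4%), 23 endothelial (10.2%) and 7 microglial cells (5.47%, 2.23 to 10.9). *Smo* was found in 30 neural-gate (24.4%), 63 mural (30%), 33 endothelial (14.7%) and 47 microglial cells (36.7%). Microglia had more transcripts per cell, and after thinning the *Smo* shares were 7.32%, 7.62%, 2.22% and 3.12% in that order of gates, levels of a few cells each. *Gli1* was detected in 1 neural-gate, 3 mural, 1 endothelial and 0 microglial cells, too few to compare.

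Summed by plate and gate, only 5 members passed the filter on low counts. With edgeR, 4 of these 5 were called higher in the neural gate (22.5% of 9281 genes). The filter asks for a minimum in 3 sums of any gates, and *Cdon* and *Gas1* met it only with their neural sums. Entry of these genes into the test thus favoured a neural call. *Cdon* had 84.2, 97.1 and 21.9 CPM on plates 1 to 3 in the neural gate and 0 to 27.5 in the others, the highest of them on the thin plate 3 (log2 difference 4.71, SE 0.471, adjusted p = 1.1e-12). *Gas1* had 79.7, 80.5 and 76.7 CPM, above every other sum (3.99, SE 0.429, adjusted p = 1.2e-11). *Gli3* had 81.9, 66.3 and 65.7 CPM, also above every other sum (2.42, SE 0.362, adjusted p = 1.1e-07). Of all genes, 11.9% had neural sums above the 9 others. Without plate 1 or without plate 2, 3 members passed the filter, and *Gas1* and *Gli3* of these were still called, while *Cdon* and *Ptch1* were not tested.

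*Ptch1* had 35.4, 40.2 and 10.9 CPM in the neural gate and overlapped the other gates (log2 difference 1.04, SE 0.416, edgeR adjusted p = 0.04). That call was lost with DESeq2 (adjusted p = 0.3), without the filter (0.12) and in cells of over 3000 transcripts (0.055). *Smo* had 53.1, 28.4 and 43.8 CPM in the neural gate, 72.8, 41.3 and 41.2 in the mural, 29.2, 29.9 and 0 in the endothelial and 53.3, 49.7 and 19.7 in the microglial gate. The gates overlapped, and the neural log2 difference was -0.15 with a 95% interval from -0.82 to 0.51 (SE 0.332, edgeR adjusted p = 0.76). In bulk the interval for the same contrast was 1.2 to 2.92. For *Ptch1* the intervals were 1.90 to 3.01 in bulk and 0.21 to 1.87 in cells. The bulk and single-cell intervals thus did not overlap for either gene. The difference between assays was not tested, and the library kit that changes with the neural population in bulk does not change in the cells.

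Without the filter, edgeR called *Boc* (28.1 CPM against 3.35 in the mean of the others, log2 difference 3.67, SE 0.614, adjusted p = 4.7e-08) and *Gli2* (15.9 against 0.306, 4.65, SE 0.841, adjusted p = 5.6e-07) higher in the neural gate, where 12.6% of 21377 genes were. *Gli1* (adjusted p = 0.84) and *Shh* (0.29) were not called.

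**Figure D3:**
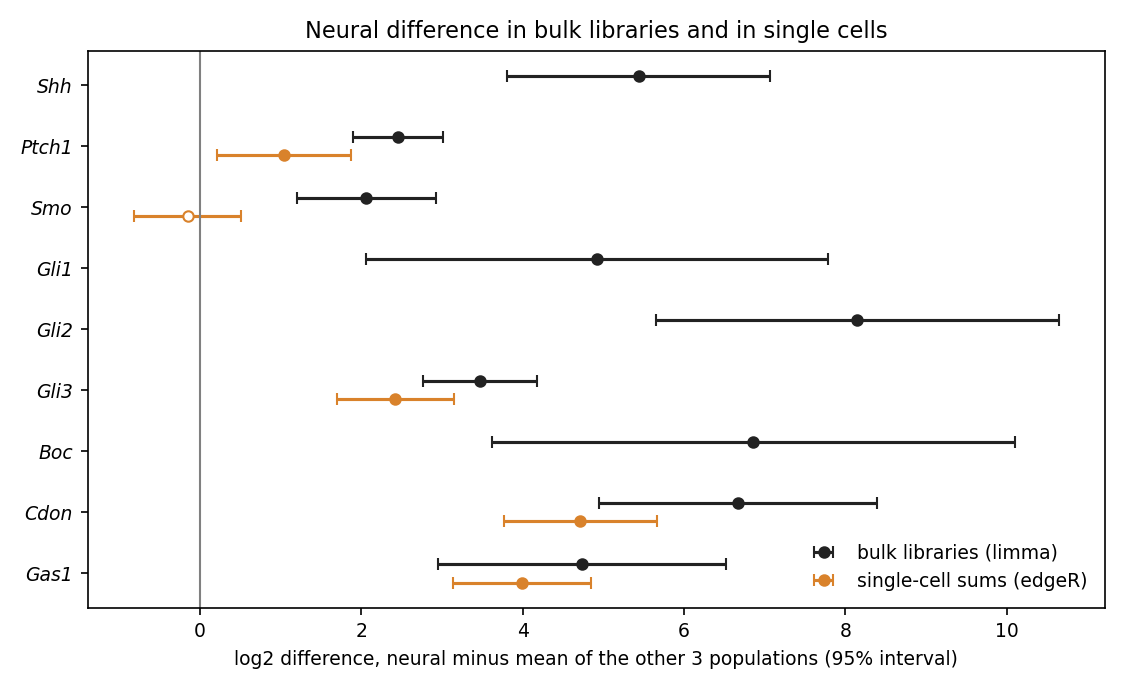
Log2 difference of neural cells from the mean of the other 3 populations, with 95% intervals, in the bulk libraries (black, limma) and in single-cell sums by plate and gate (orange, edgeR). Open symbols mark an adjusted p of 0.05 or more, and 4 members without an orange point did not pass the single-cell filter. Every orange point lies to the left of its black one, and the intervals are apart for *Ptch1* and *Smo*.

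Below the neural gate *Gli3* was again lowest in microglia. Its sums were 42.7, 46.1 and 0 CPM in the mural gate, 16.7, 23.6 and 14.2 in the endothelial and 1.48, 3.11 and 0 in the microglial gate. Microglia were below mural cells by edgeR (log2 difference 3.79 for mural minus microglia, SE 0.661, adjusted p = 2.9e-06, where 18.8% of genes were called) and below endothelial cells (2.84, SE 0.751, adjusted p = 0.0017, where 18.7% were), the latter not without plate 1 or plate 2 (adjusted p = 0.08 for both). Mural minus endothelial was not called (0.95, SE 0.407, edgeR adjusted p = 0.096), and was without plate 3 (0.021). *Gli3* was also called higher in mural cells than in the mean of the others (1.30, SE 0.376, adjusted p = 0.007, where 13.5% of genes were called higher), but not with DESeq2 (adjusted p = 0.23) nor without plate 1 (0.38) or plate 2 (0.37). *Cdon* and *Gas1* were called higher in the neural than in the mural gate (3.55 and 2.15, 17.7% of genes), *Cdon* not with DESeq2 (adjusted p = 0.36) and *Gas1* not without plate 2 (0.1). *Gas1* was not called between the mural and endothelial gates (1.58, SE 0.623, edgeR adjusted p = 0.063), and was with plates as a block (0.046) and without plate 3 (0.035). The neural and mural gates were not separated for *Gli3* (neural minus mural 0.84, SE 0.355, adjusted p = 0.062), and were with plates as a block (adjusted p = 0.044). *Ptch1*, too, was lower in microglia than in mural cells (1.76, SE 0.616, edgeR adjusted p = 0.019) and endothelial cells (1.75, SE 0.618, adjusted p = 0.021), but not with DESeq2 (adjusted p = 0.16 and 0.22). In microglia 4 of 5 members tested were called lower than in the mean of the others (21.2% of genes), all but *Smo*. With DESeq2 2 of 5 were, and without plate 1 or plate 2 2 of the 3 that passed the filter. For *Smo*, endothelial cells were below microglia (-1.0, SE 0.378, adjusted p = 0.032, where 17.5% of genes were), a call lost with DESeq2 (0.39), without the filter (0.077) and without plate 1 (0.53) or plate 2 (0.36). No member was called lower in endothelial cells than in the mean of the others with edgeR (0 of 5, 6.96% of genes, 1 with an unadjusted p under 0.05) or DESeq2 (0), while the block for plates called *Smo* (-0.80, adjusted p = 0.046).

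Transcripts in the mural and endothelial gates were set beside the markers of the same cells. Of the 7 mural-gate cells with *Boc*, 6 had at least 3 of 8 neural markers and 1 had at least 3 of 8 mural markers, whereas the 203 mural-gate cells without *Boc* had a median of 7 mural markers, and 53 of them had at least 3 neural markers. Of the 22 mural-gate cells with *Gas1*, 12 had at least 3 neural markers and 16 at least 3 mural markers. The *Boc* cells of the mural gate thus carried neural rather than mural markers. In contrast, 34 of 41 mural-gate cells with *Gli3* had at least 3 mural markers, as did 24 of 26 with *Ptch1* and 54 of 63 with *Smo*. Among mural-gate cells without the transcript these were 160 of 169 for *Gli3*, 170 of 184 for *Ptch1* and 140 of 147 for *Smo*. Neural markers were at 3 or more in 14, 8 and 24 of the cells with *Gli3*, *Ptch1* and *Smo*, and in 45, 51 and 35 of those without. Cells with *Gli3* or *Smo* thus had mural markers somewhat less often, and neural markers more often, than cells without, by counts that were not tested. In the endothelial gate 23 of 24 cells with *Gli3*, 23 of 23 with *Ptch1* and 32 of 33 with *Smo* had at least 3 endothelial markers, and 5, 4 and 7 had 3 or more neural markers, against 15 of 201 endothelial-gate cells without *Gli3*, 16 of 202 without *Ptch1* and 13 of the 225 cells less the 33 with *Smo*. All 47 microglial cells with *Smo* had at least 3 microglial markers and 1 had 3 neural markers. Collagen and other fibroblast transcripts were found in 36 of the 41 mural-gate cells with *Gli3* and in 143 of the 169 without. Cells with a transcript were also deeper (a median of 8628 against 6298 transcripts for *Gli3* in the mural gate), and the part of depth or of stray transcripts in these counts was not tested.

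Within the neural gate, cells were divided by whether radial glia markers (such as *Pax6*, *Hes5* and *Slc1a3*, of dividing progenitors) or young neuron markers (such as *Dcx* and *Tubb3*) had the larger sum. None of the 9 genes is on either list. This gave 43 cells with the larger radial glia sum and 79 with the larger young neuron sum, with 1 tie left out and 19 cells in which the larger sum was under 3 times the smaller. Median depths were 7773 and 7716 transcripts. These are ranges of a score, not cell types, and no test was run.

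*Gas1* was detected in 27 of 43 cells of the first kind (62.8%, exact 95% interval 46.7 to 77.0) and in 5 of 79 of the second (6.33%, 2.09 to 14.2). *Gli3* was detected in 24 (55.8%, 39.9 to 70.9) and 8 (10.1%, 4.47 to 19.0). *Smo* was detected in 20 (46.5%, 31.2 to 62.3) and 9 (11.4%, 5.34 to 20.5). For these 3 genes the share was higher on the radial glia side on each of the 3 plates. *Cdon* was in 17 (39.5%, 25 to 55.6) and 13 (16.5%, 9.06 to 26.5), and *Gli2* in 9 (20.9%, 10 to 36) and 5 (6.33%, 2.09 to 14.2). The *Cdon* share was higher on the radial glia side on plates 1 and 2. Plate 3 held 1 cell with *Cdon* on each side, of 6 and 8 cells, and in CPM the order there was reversed (19.2 against 25.5).

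The intervals of *Cdon* and *Gli2* overlapped between the sides, as did those of *Ptch1* and *Boc*. *Ptch1* was in 9 radial glia-side cells (20.9%, 10 to 36) and 15 young neuron-side cells (19%, 11 to 29.4), and *Boc* in 12 (27.9%, 15.3 to 43.7) and 12 (15.2%, 8.10 to 25). In CPM, *Gas1* stood at 215 (95% Poisson interval 168 to 271) against 9.49 (3.48 to 20.7), *Gli3* at 188 (144 to 241) against 14.2 (6.51 to 27.0), *Cdon* at 188 (144 to 241) against 30 (18.1 to 46.9) and *Smo* at 78.7 (51.4 to 115) against 20.6 (10.9 to 35.2). *Boc* at 54.5 (32.3 to 86.2) against 23.7 (13.3 to 39.1) and *Ptch1* at 48.5 (27.7 to 78.7) against 28.5 (16.9 to 45.0) were also higher on the radial glia side, with overlapping intervals. The single neural-gate cell with *Shh* was on the young neuron side and the single cell with *Gli1* on the radial glia side. On the radial glia side, *Smo* at 78.7 CPM was above the pooled 54.2 CPM of the mural gate (43.2 to 67.1) with overlapping intervals, and the young neuron side was below it.

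**Figure D4:**
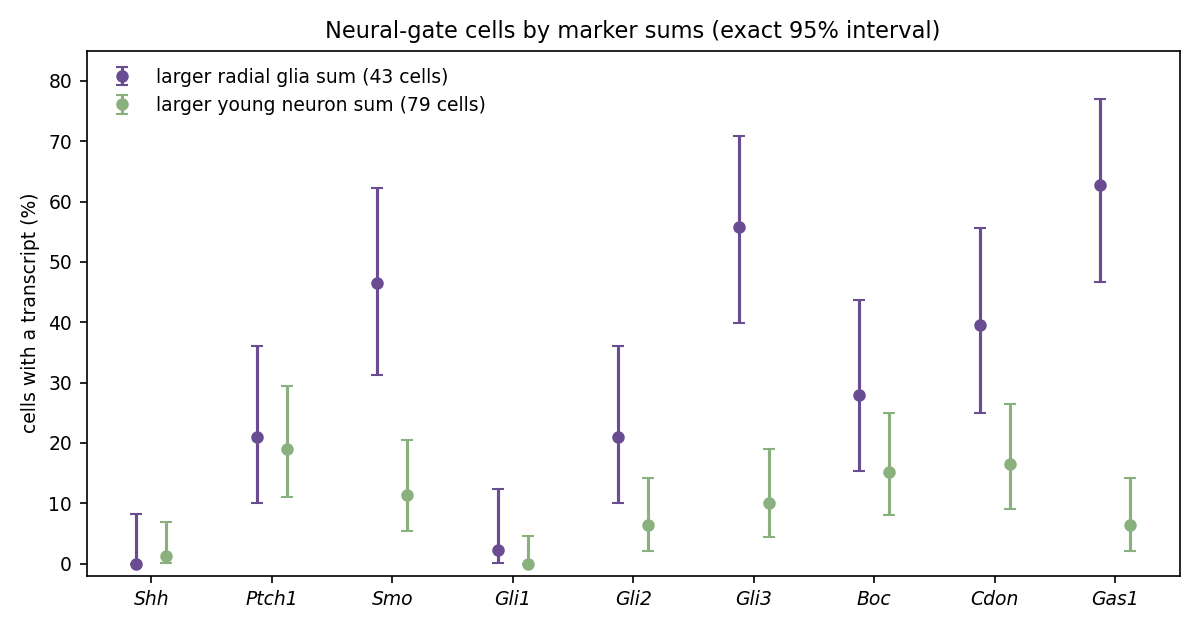
Share of neural-gate cells with at least 1 transcript of each gene (percent, exact 95% intervals) for cells with the larger radial glia marker sum and cells with the larger young neuron marker sum. The intervals are apart for *Smo*, *Gli3* and *Gas1*, and those of *Ptch1* almost coincide.

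Beyond the 9 members, 41 further genes of hedgehog production, reception and GLI control were listed, and 39 passed the bulk minimum. In neural cells 29 of 39 were called higher by limma (background 32.9%) and 2 lower (31.2%), with a median log2 difference of 1.65 against 0.09 for all genes, and 11 were higher over 10-fold (13.8%). In single cells 9 of the 20 that passed the filter were called higher in the neural gate by edgeR (22.5% of genes), with a median log2 difference of 0.54 against 0.04. Among the 11 were *Disp2*, related to the ligand-release factor *Disp1* (2413 against 1.91 in the mean of the others, log2 difference 10.36), *Gpr161*, a ciliary receptor that holds the pathway down (4709 against 38.1, 9.0) and *Lrp2*, a cell-surface receptor that binds the ligand (345 against 1.54, 7.69). *Scube1*, *Scube2* and *Scube3*, of a family that helps release the ligand, differed by 5.57, 3.84 and 6.21. *Hhip*, a decoy that binds the ligand and is itself a target, was at 104, 91.4 and 113 in neural libraries, at 0 in all 6 endothelial and microglial libraries and at 0, 0 and 40.4 in mural libraries (6.10, adjusted p = 0.00023). *Disp2*, *Lrp2*, *Scube2* and *Hhip* met the bulk minimum only through their neural libraries. No *Hhip* transcript was found in the 123 neural-gate cells, a count of 0 that allows a share with a detected transcript of up to 2.95% (exact 95% interval), and 3 mural cells had one. *Evc*, *Evc2*, *Kif7* and *Stk36*, which act at the cilium or on the GLI factors, differed by 3.65, 4.93, 3.93 and 5.11. For *Evc* the mural mean of 387 was not far below the neural mean of 561. In single cells *Kif7* had no such excess, with a transcript in 4 of 123 neural-gate cells (4.14 CPM, 95% Poisson interval 1.13 to 10.6) and 11 of 210 mural cells (7.10 CPM, 3.54 to 12.7). The 2 called lower in neural cells were *Arl13b* (-0.66) and *Spop* (-0.84).

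The inhibitor *Sufu*, which binds GLI proteins, had 1852, 1886 and 1950 in neural, 97.0, 406 and 111 in mural, 647, 554 and 958 in endothelial and 511, 420 and 456 in microglial libraries. The mural libraries lay below all others, as for 4.3% of genes (log2 difference -2.37, SE 0.376, limma adjusted p = 0.00054). In single cells *Sufu* was not low in the mural gate, with a transcript in 25 of 210 cells (19.4 CPM) against 14 of 123 (15.5 CPM) in the neural gate.

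*Dhh*, the Desert hedgehog ligand, was an endothelial gene here. Its normalized counts were 12.4, 315 and 243 in endothelial, 9.35, 6.09 and 4.49 in neural, 0, 17.1 and 0 in mural and 3.57, 0 and 0 in microglial libraries. Libraries Ec-343 and Ec-346 were high, and Ec-340 lay below 1 mural library (log2 difference 4.99, SE 1.14, limma adjusted p = 0.0052). *Dhh* transcripts came from 8 of the 225 endothelial-gate cells, 1 neural-gate, 1 mural and 0 microglial cells. *Ihh*, the third ligand, did not reach the bulk minimum and was at most 11.3 in any library.

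In endothelial cells 2 of 39 pathway genes were called higher (background 19.7%), *Dhh* and *Tulp3*, and 15 lower (22.4%), 4 of them over 10-fold (7.16% of genes): *Gpc3*, *Evc2*, *Gpr161* and *Stk36*. In single cells *Gpc3* was also called lower in the endothelial gate (-3.32, edgeR adjusted p = 0.013), and *Gpr161* was not (9.85 CPM against 10.7, log2 difference -0.51, adjusted p = 0.87). In mural cells 6 were called higher (19.3%) and 10 lower (22.7%). *Gpc3*, a glypican that restrains hedgehog signalling, was at 889, 1010 and 1431 in mural against 195 to 234 in neural, 0 to 5.32 in endothelial and 9.49 to 70.1 in microglial libraries (log2 difference 5.55, limma adjusted p = 0.00012), and *Disp2* was lower (-4.13). *Gpc3* was also called higher in the mural gate of single cells (28.2 CPM against 4.68, log2 difference 3.27, edgeR adjusted p = 9.2e-07). In microglia 3 were called higher (23.4%) and 14 lower (22.3%). *Arrb2*, an arrestin with roles beyond this pathway, was at 11337, 10403 and 7831 in microglia and at most 1569 elsewhere (3.78, limma adjusted p = 6.4e-07). *Disp2*, *Scube2*, *Gpr161* and *Tulp3*, a ciliary transport factor, were called lower over 10-fold in microglia, where *Scube2* was at 0 in all 3 libraries. Of these, *Gpr161* and *Tulp3* were also lower in the microglial gate of single cells, at 0 and 3.03 CPM (edgeR adjusted p = 0.02 and 0.0045).

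**Figure D5:**
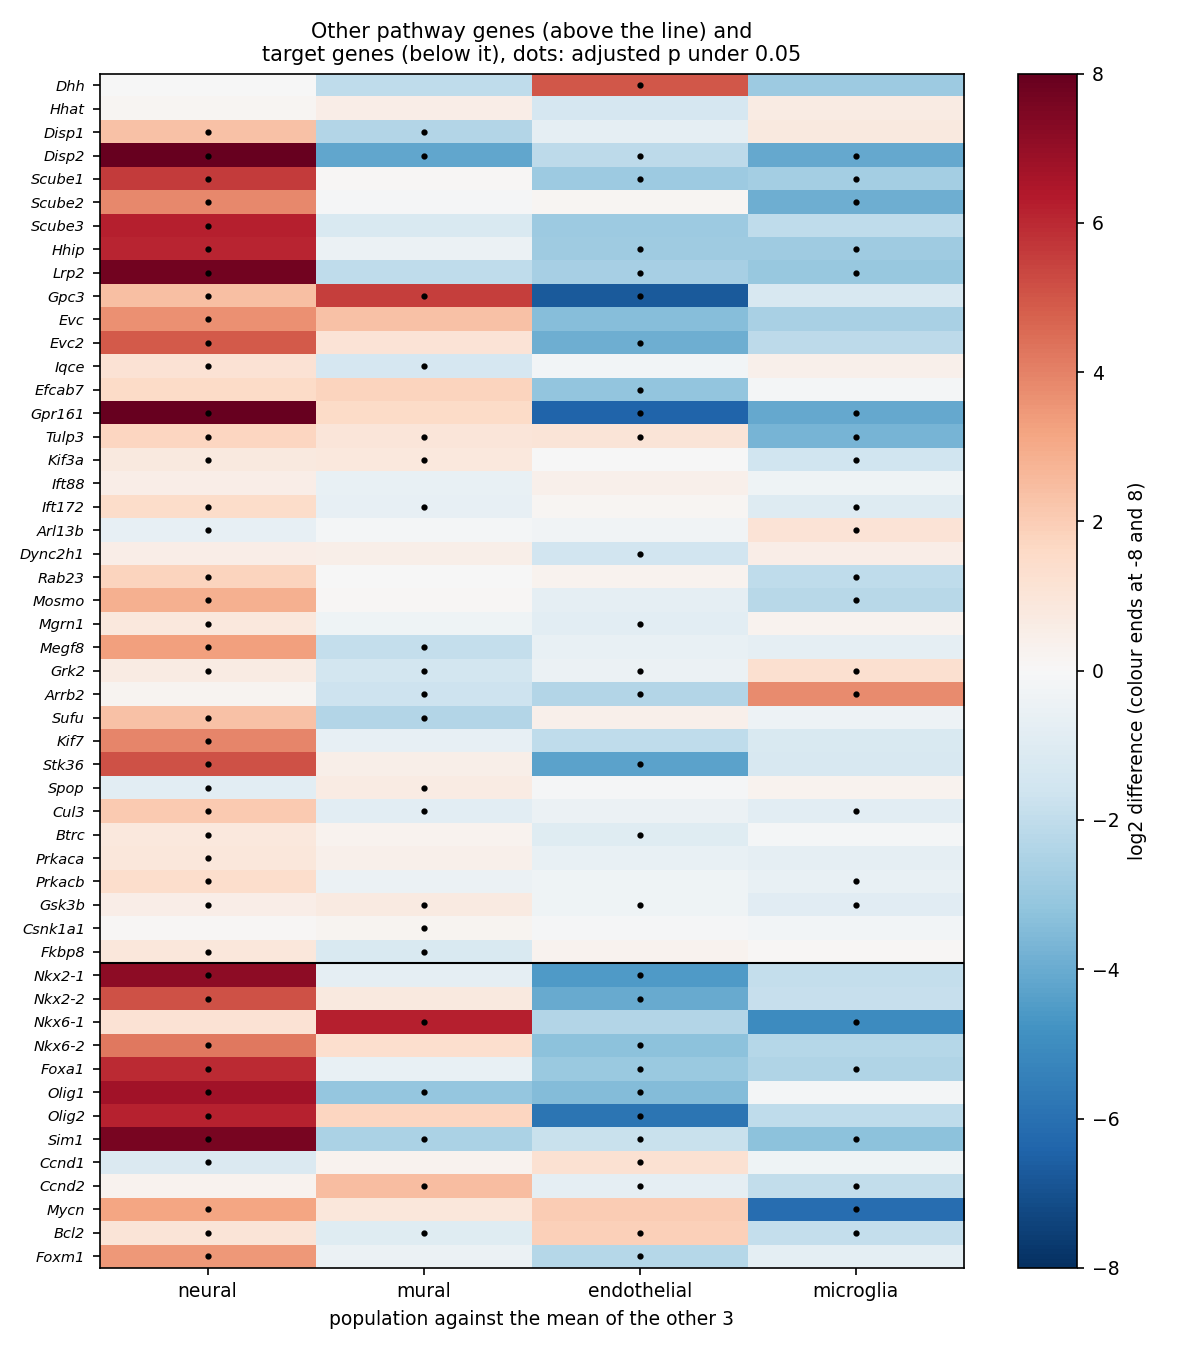
Log2 difference of each population from the mean of the other 3 (colour) for 38 other pathway genes and, below the line, 13 target genes in the bulk libraries. Dots mark an adjusted p under 0.05. Red fills most of the neural column, with *Dhh* in endothelial cells, *Gpc3* and *Nkx6-1* in mural cells and *Arrb2* in microglia as exceptions.

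Of 15 genes listed as hedgehog targets or ventral identity genes, 13 were tested and 10 were called higher in neural cells (32.9% of all genes), 8 over 10-fold (13.8%), with 1 lower (31.2%). The 8 were the ventral transcription factors *Nkx2-1* (1534 against 23.6 in the mean of the others), *Nkx2-2* (115 against 8.96), *Nkx6-2* (48.9 against 8.52), *Foxa1* (103 against 2.52) and *Sim1* (286 against 0.668), the oligodendrocyte lineage factors *Olig1* (204 against 3.13) and *Olig2* (519 against 25.8), and the cell cycle factor *Foxm1* (3302 against 336). The 10-fold rule is applied to means of log2 values, and for *Nkx6-2* and *Foxm1* the plain means differ by under 10-fold. In single cells *Nkx2-1* was also called higher in the neural gate (2.81, edgeR adjusted p = 1.1e-07), whereas *Foxm1* was not (23.9 CPM against 29.4, log2 difference -0.20, 95% interval -1.23 to 0.82, adjusted p = 0.79). *Foxa2*, a floor plate gene, did not reach the minimum, at 15.6 to 25.4 in neural libraries and at 0 in all 9 others. *Nkx2-2*, *Nkx6-2*, *Foxa1*, *Sim1* and *Olig1* met it only through their neural libraries. Transcripts of ventral territories were thus present in the neural libraries. *Ccnd1*, a cyclin, was the target called lower in neural cells (2503 against 6016, log2 difference -1.16). *Nkx6-1* was the exception, at 469, 282 and 303 in mural and 22.2 to 26.4 in neural libraries, with 63.9 in 1 endothelial library and 0 in the other 5 endothelial and microglial libraries (mural log2 difference 6.20, limma adjusted p = 0.00098). *Ccnd2*, another cyclin, was highest in mural libraries at 32570 to 48786 (2.44, adjusted p = 4.8e-06). In single cells its sums were highest in the neural gate, at a mean of 444 CPM against 297 in the mural gate (neural minus the others 2.41, edgeR adjusted p = 1.3e-10, and mural minus the others 1.76, 8.1e-07). In endothelial cells *Nkx2-1*, *Nkx2-2*, *Olig1* and *Olig2* were called lower over 10-fold, and in microglia *Nkx6-1* and *Mycn* were. In single cells *Mycn* was also called lower in the microglial gate (-5.46, edgeR adjusted p = 3.4e-09), while *Nkx2-1* was not lower in the endothelial gate (18.7 CPM against 31.5, fitted log2 difference 0.21, adjusted p = 0.81). In bulk, *Nkx2-2*, *Olig1* and *Olig2* were at 0 in all endothelial libraries and *Nkx6-1* in all microglial ones, so their fitted folds depend on the pseudocount.

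The genes whose bulk pattern was most like that of each member were sought by Pearson r over the 12 libraries, which share the neural against non-neural step. For *Shh* these were *Sfta3-ps* (r = 0.986), *Rtn4rl2* and *Ptprt*. For *Ptch1* they were *H2afy2*, *Trip12* and *Mmp17*, for *Smo* *Ttll4*, *Arel1* and *Hap1*, and for *Gli3* *Enah* (r = 0.985), *Ptprf* and *Guf1*. For *Gli2* they were *Sik3*, *Rhebl1* and *Unc5d*, for *Gli1* *Stag2* (r = 0.956), *Med14* and *Ints10*, for *Boc* *Mfn1*, *Rnf152* and *Eid2*, for *Cdon* *Trp53inp2*, *Rab3c* and *Foxk2*, and for *Gas1* *Megf9*, *Carmil3* and *Gnao1*. Between members, r ran from 0.34 (*Gli1* and *Gli3*) to 0.92 (*Smo* and *Gas1*) over 12 libraries. Over the 9 libraries without the neural ones the range was -0.773 (*Gli1* and *Cdon*) to 0.74 (*Smo* and *Gas1*), so most of the likeness lay in the neural step.

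Promoter sequences from RefSeq (GRCm38.p6) were held for 6 of the 9 members. *Gli2*, the member with the largest neural difference, and *Ptch1*, found in all 4 populations, are shown as the 250 bases before the annotated start, on the strand of the gene (chr1:119053620-119053869 and chr13:63565736-63565985, both minus strand), in lower case since no motif was found to mark. The *Ptch1* window lies inside the span of the gene, upstream of an internal start, and neither overlaps an annotated exon of its gene.
Gli2: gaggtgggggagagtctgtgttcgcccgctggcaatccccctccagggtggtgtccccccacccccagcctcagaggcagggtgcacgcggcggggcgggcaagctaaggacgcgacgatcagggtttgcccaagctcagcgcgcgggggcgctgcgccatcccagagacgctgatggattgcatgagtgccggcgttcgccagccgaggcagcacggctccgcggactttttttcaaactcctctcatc
Ptch1: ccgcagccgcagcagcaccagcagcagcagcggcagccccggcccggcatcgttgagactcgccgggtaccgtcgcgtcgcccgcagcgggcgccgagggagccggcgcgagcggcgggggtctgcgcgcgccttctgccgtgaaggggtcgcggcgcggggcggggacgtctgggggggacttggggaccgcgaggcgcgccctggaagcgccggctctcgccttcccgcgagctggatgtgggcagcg
Both are rich in G and C (67.2% and 78.4%, against a median of 52.4% over 32851 promoters), with 22 and 41 CpG sites against a median of 6. *Gli3* (72.8%), *Smo* (68.4%) and *Gas1* (58.8%) were also above the median and *Cdon* (42.8%) below it, the *Cdon* window lying inside the span of the gene with 31 bases in annotated exons. The GLI motif GACCACCCA, searched on both strands in these windows, was in none of the 6 and in 0.225% of all promoters. The looser form GACCNCCCA was likewise in none of the 6, and in 0.868% of all. These letters are not in these windows, and nothing follows from that about GLI binding elsewhere.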

How the data were processed

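The authors deposited bulk normalized counts, a signal on a linear scale of whole reads divided by 1 factor for each library (100% of 124078 low values were whole within 0.01 reads), and single-cell transcript counts corrected by them for identifiers drawn more than once. The submitters' processing notes name BWA 0.6.2-r126, STAR, featureCounts, DESeq2 and mm10, and which step used which is not given in the sources used here. Genes were named and measured by GENCODE vM21 (GRCm38).

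Bulk values were tested as log2(normalized count + 1) with limma 3.58.1 (R 4.3.3), genes with a mean of at least 10, no block, and Benjamini-Hochberg adjusted p under 0.05. All 12 libraries entered 1 fit, so each contrast uses a spread shared by the 4 populations. Wild-type cells with over 1500 transcripts, grouped by the sort gate of their well, were summed by plate and rounded, and tested with edgeR 4.0.16 quasi-likelihood fits and TMM. DESeq2 1.42.0, blocks, other pseudocounts, filters and scalings, thinning and leaving out each library or plate were alternatives. On simulated bulk counts of 19765 genes limma called 1 of 50 genes changed 2-fold, 19 of 50 changed 4-fold, 50 of 50 changed 12-fold and 30 of 19565 unchanged, for the neural contrast, so small differences could go uncalled. No doublet caller was run. Tests are two-sided. Named were the 9 members, listed genes called over 10-fold or else the 2 with the largest called difference, *Hhip*, *Dhh*, *Ihh*, *Sufu* and *Kif7*, and 3 genes most like each member among those with a mean of at least 100. Other genes named were chosen after their values were seen. The result of 1 listed gene is not reported here.

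Library numbers were taken as brains. *Xist* was 7846 or more in the 4 libraries numbered 340 and at most 89.0 in the others, and residuals of same-numbered libraries correlated from -0.054 to 0.0801. Plates come from the table of wells, with residual correlations from -0.0342 to 0.0962. Each plate holds cells of several gates, and which brain a cell came from is not given in the sources used here, so p-values for cells measure the spread between plates. The *Mof* knockout plates were not used here, having no gates. Members and lists were chosen with earlier results of these data known.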

Additional observations from a re-analysis of the deposited data

Results flagged for a closer look

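Wells of the wild-type plates sorted by medium or low PDGFRβ belong to none of the 4 populations and entered no comparison. In 23 such cells with over 1500 transcripts the 9 genes gave 79 transcripts, or 482 CPM (95% Poisson interval 381 to 600), against 368 in the neural gate (331 to 408) and 157 in the mural gate (138 to 178). They comprised 25 of *Gas1*, 18 of *Ptch1*, 14 of *Gli3*, 9 each of *Smo* and *Cdon*, 2 of *Shh* and 1 each of *Gli2* and *Boc*, and none of *Gli1*. At least 1 member was found in 14 of the 23 cells. At least 3 of 8 neural markers were found in 14 cells and at least 3 of 8 mural markers in 9. The difference from the other gates was not tested.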

How the results depend on the processing

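The 9 calls of higher members in neural bulk libraries held under every alternative tried, except that DESeq2 gave no p-value for *Boc*. Other counts moved. With DESeq2 on recovered reads or a pseudocount of 10, 1 member was lower in mural cells. Without the minimum, with quantile normalization or with DESeq2, 2 members were lower in endothelial cells, and with edgeR 1 member and 9 pathway genes were. With the replicate block for brains, 1 pathway gene was higher in endothelial cells, and with that for plates 1 member was lower in endothelial cells of the single-cell data. The other calls that a block changed stand beside their results. With DESeq2, 2 members were lower in the microglial gate and 0 higher in the mural gate.

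Leaving out 1 library gave 1 to 3 pathway genes higher and 9 to 16 lower in endothelial cells, 2 to 4 members lower in endothelial cells, 3 to 7 in microglia and 0 to 1 in mural cells, and 1 to 2 pathway genes lower in neural cells. Leaving out 1 plate, which also changes how many members pass the filter, gave 2 to 6 members higher in the neural gate, 0 to 1 higher in the mural gate and 2 to 5 lower in microglia.

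Of the differences that changed sign, none had been called. On the log2 scale, against the other populations, mural *Boc* was 0.17 with a pseudocount of 0.5 and 0.011 with quantile normalization, microglial *Gli1* was 0.017 with a pseudocount of 0.5, and mural *Shh* was 1.45 with edgeR and 0.98 with DESeq2. With edgeR and DESeq2, *Gli2* mural minus endothelial was -0.05 and -0.028, *Gli1* mural minus microglia 0.22 and 0.18, and *Gas1* endothelial minus microglia 0.19 and 0.21. In cells, DESeq2 gave 0.003 for neural *Smo*, 0.56 for mural *Cdon* and 0.069 for *Smo* mural minus microglia, no filter gave 0.086 for mural *Cdon*, and cells of over 3000 transcripts gave -0.029 for *Ptch1* mural minus endothelial.

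With 1 library left out, the values against the others ran from -1.80 to 0.16 for mural *Shh*, -2.24 to 0.32 for mural *Gli1*, -0.71 to 0.67 for mural *Boc*, -0.49 to 0.05 for endothelial *Gli3*, -2.64 to 0.23 for endothelial *Boc* and -0.82 to 0.32 for microglial *Gli1*. Mural minus endothelial ran from -0.33 to 2.27 for *Gli2*, -0.71 to 1.29 for *Cdon* and -0.63 to 2.23 for *Boc*. Mural minus microglia ran from -0.13 to 1.83 for *Shh* and -1.70 to 0.86 for *Gli1*. Endothelial minus microglia ran from -0.88 to 1.73 for *Gli2*, -0.14 to 1.55 for *Cdon* and -1.18 to 0.89 for *Gas1*. With 1 plate left out, neural *Smo* ran from -0.37 to 0.15 and *Smo* mural minus microglia from -0.20 to 0.17, and mural *Cdon* was 0.57 without plate 3. The causes were not tested.

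Quantile normalization moved the median of all genes in neural cells from 0.09 to -0.16, with 5724 genes higher and 6992 lower against 6510 and 6170. In cells, DESeq2 called 1367 genes higher and 1052 lower in the neural gate against 2084 and 1610, and without plate 1 or 2 edgeR called 759 and 779 higher. *Shh* and *Gli1* had too few transcripts in cells to compare, and libraries of 1 population differed beyond counting error (chi-square per degree of freedom over all genes 6.98 to 13.1 between neural and 60.9 to 161 between other libraries).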
